A study of Mus musculus with 6 samples.

Results

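Glomerular endothelial marker genes were examined in sorted kidney endothelial cells (ECs). The genes were Ehd3, Sost, Gata5, Tbx3, Pi16, Emcn and Tspan7, that is, 7 of the 55401 genes listed in the count table, listed by name as markers of the endothelium of the glomerulus. The rule itself uses no measured value, but the list was drawn up with earlier results of these data known. RNA was sequenced from ECs of 3 CTRL and 3 RbpjΔEC male mice, 1 library per mouse, sorted from the kidney as CD31+ CD45- cells. All mice carried floxed Rbpj (Rbpj f/f), which encodes the DNA-binding factor that carries Notch signals in the nucleus. RbpjΔEC mice also carried 1 allele of Cdh5(PAC)-CreERT2, a tamoxifen-dependent Cre driven by the VE-cadherin promoter in ECs of every vascular bed, and CTRL mice were Cre-negative littermates. Both groups received 5 doses of 1.5 mg tamoxifen at 8 weeks of age, kidneys were taken 12 weeks after induction, and the labels give an age of 21 weeks for each mouse. ECs of all kidney vessels were pooled in each library, so glomerular ECs were part of a mixed EC population.

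The glomerulus is the filtering unit of the kidney, a tuft of fenestrated capillaries held by mesangial cells and wrapped by podocytes. Its ECs depend on VEGF made by podocytes, lack the diaphragms that close the fenestrae of peritubular capillaries, and have an expression profile of their own among renal ECs. EHD3 is an ATPase of endocytic recycling and is used to mark these cells in mouse kidney, whereas endomucin (Emcn) is a sialomucin of capillary and venous ECs in and outside the glomerulus. GATA5 and TBX3 are transcription factors, TSPAN7 is a tetraspanin of the cell membrane, and sclerostin (Sost) is a secreted antagonist of Wnt signalling. PI16 is a peptidase inhibitor of the CAP protein family that is also known from fibroblasts, so the genes are not equally specific to glomerular ECs.

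The 7 genes lie on 6 chromosomes (GRCm38, GENCODE M21). Ehd3 spans chr17:73804134-73832094 on the forward strand and Pi16 spans chr17:29317680-29330593 on the forward strand. Gata5 lies at chr2:180325133-180334699 on the reverse strand, Tbx3 at chr5:119670669-119684724 on the forward strand and Sost at chr11:101962458-101967015 on the reverse strand. Emcn lies at chr3:137341067-137432185 and Tspan7 at chrX:10485158-10596605, both on the forward strand. All are protein coding, and the values below are reads on their exons. Antisense genes overlap exons of Gata5 (258 bases), Pi16 (222 bases) and Tbx3 (115 bases). The counting strand was not given in the sources used here, so the part of reads from these antisense genes is uncertain. They were low, with group means of at most 7.73 CPM (counts scaled to library size), the highest being Tbx3os1.

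RefSeq windows around the start of the gene (250 bases before to 50 after, GRCm38.p6) were found for 6 of the 7 genes. Since Rbpj was the gene targeted, these were searched on both strands for TGGGAA, the core of the sequence bound by RBPJ. The core was present in the window of Ehd3 and in none of the other 5, against 25.6% of all 32851 windows. The upstream bases of 3 genes are shown, Ehd3 for its cores and Gata5 and Tspan7 as genes that were lower in RbpjΔEC and have no core in the window. Each is written 5′ to 3′ on the strand of the gene, in lower case with any TGGGAA or TTCCCA in capitals.

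Ehd3, forward strand, chr17:73804591-73804840: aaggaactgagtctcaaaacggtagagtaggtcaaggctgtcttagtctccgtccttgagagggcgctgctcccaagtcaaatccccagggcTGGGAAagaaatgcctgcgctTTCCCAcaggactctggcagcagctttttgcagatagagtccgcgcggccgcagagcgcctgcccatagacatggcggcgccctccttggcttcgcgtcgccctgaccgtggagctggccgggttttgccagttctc
Gata5, reverse strand, chr2:180334680-180334929: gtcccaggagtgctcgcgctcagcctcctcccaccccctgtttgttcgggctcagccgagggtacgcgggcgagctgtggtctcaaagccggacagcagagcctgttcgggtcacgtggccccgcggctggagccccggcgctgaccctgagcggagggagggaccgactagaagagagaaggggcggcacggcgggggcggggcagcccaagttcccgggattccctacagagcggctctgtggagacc
Tspan7, forward strand, chrX:10484866-10485115: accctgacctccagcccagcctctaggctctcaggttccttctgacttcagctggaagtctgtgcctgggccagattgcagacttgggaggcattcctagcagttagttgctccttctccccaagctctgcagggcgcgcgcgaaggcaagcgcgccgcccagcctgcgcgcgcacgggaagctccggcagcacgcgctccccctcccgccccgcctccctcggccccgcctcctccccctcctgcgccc

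In Ehd3 the cores start 158 and 137 bases before the RefSeq start, which lies inside the longer GENCODE span given above, and they point in opposite directions and have 15 bases between them. A pair in this orientation with 15 to 17 bases between the cores was found in 6 of 32851 windows (0.0183%), a range that was chosen after the Ehd3 sequence was seen. All 250 bases of the Ehd3 stretch lie in the exon of another GENCODE transcript, a retained intron. A GATA motif (AGATAA) was present in 11.2% of all windows and an ETS motif (CCGGAA) in 14.9%, and neither was found in the windows of the 6 genes. These matches describe the letters of the window and are not measurements of binding.

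Total counts on genes were between 39649171 and 47726850 per library, and the limit of 3 counts that was used for low values equals 0.0633 to 0.0748 CPM. All 7 genes were far above this limit in every library. CTRL 1 stood apart in detecting 33764 genes, where the rest detected 25629 to 26785. The count of Rbpj over the whole gene was 29.2 ± 0.963 CPM in CTRL and 28.2 ± 1.86 CPM in RbpjΔEC (SD, n = 3 each). It includes exons outside the floxed part and therefore does not check the genotype. Hey1, a Notch target named here after its values were seen, was 16.7, 19.9 and 22.6 CPM in CTRL and 11.5, 8.91 and 14.6 CPM in RbpjΔEC. The pan-endothelial markers Pecam1 (1888 to 2322 CPM) and Cdh5 (1455 to 1932 CPM) were high in all libraries.

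The comparison of RbpjΔEC with CTRL asks how the glomerular part of the kidney EC transcriptome differs after endothelial loss of Rbpj. Gata5, Tbx3, Pi16 and Tspan7 were lower in RbpjΔEC, by 1.72-fold, 1.47-fold, 1.84-fold and 1.65-fold. Ehd3, Emcn and Sost had lower means in RbpjΔEC but did not pass the threshold of 0.05 on the adjusted p. Thus 4 of 7 genes were called lower and none higher (edgeR quasi-likelihood test, Benjamini-Hochberg adjustment over 18438 genes), against 0.559% of all genes called lower and 1.13% called in either direction. An unadjusted p under 0.05 was reached by 6 of the 7, all lower, against 8.62% of all genes lower and 17.5% in either direction. Every RbpjΔEC library was below every CTRL library for 6 of the 7, against 11.6% of all genes, and 23% of all genes were without overlap in either direction. The median log2 fold change was -0.65 for the 7 genes and 0.01 for all genes tested. The genes share libraries and possibly cells, so they are not independent observations. In these bulk samples, fewer glomerular ECs in a library and less RNA of these genes per cell cannot be told apart.

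**Figure D1:**
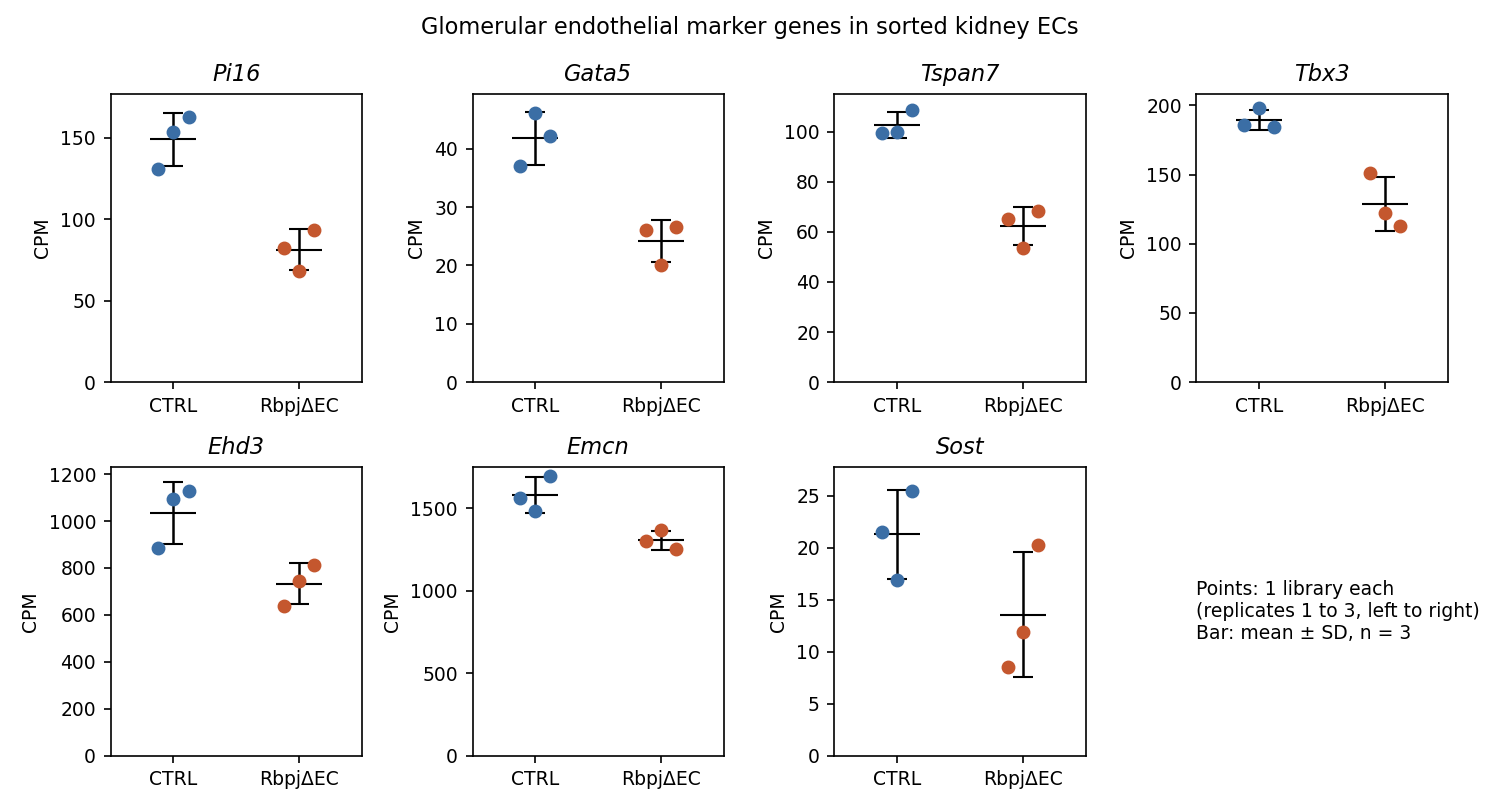
CPM (y axis, from 0) of the 7 glomerular endothelial marker genes in each library of CTRL (blue) and RbpjΔEC (orange), with the mean ± SD of 3 libraries. The groups overlap for Sost, where RbpjΔEC 3 has 20.2 CPM, and for no other gene.

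Among the transcription factors, Gata5 was 37.1, 46.1 and 42.2 CPM in CTRL 1 to 3 and 26.1, 20.1 and 26.5 CPM in RbpjΔEC 1 to 3. The highest RbpjΔEC library was below the lowest CTRL library. The means were 41.8 ± 4.53 and 24.2 ± 3.60 CPM (SD, n = 3 each), a log2 fold change of -0.79 ± 0.12 (SE; edgeR, adjusted p = 0.0154). GATA5 is a zinc finger factor known from the developing heart and from ECs. Tbx3, a T-box repressor, was 185.9, 198.0 and 184.7 CPM in CTRL and 151.0, 122.0 and 113.2 CPM in RbpjΔEC. CTRL libraries were close together, and RbpjΔEC 1 was the nearest to them. The log2 fold change of Tbx3 was -0.56 ± 0.10 (SE; edgeR, adjusted p = 0.0281).

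Among the genes of the membrane and its traffic, Tspan7 was 99.5, 99.8 and 108.6 CPM in CTRL and 65.2, 53.7 and 68.1 CPM in RbpjΔEC. All RbpjΔEC libraries were well below the CTRL libraries. Its log2 fold change was -0.72 ± 0.09 (SE; edgeR, adjusted p = 0.00573), the smallest adjusted p of the 7 genes and the one that passed the threshold with each library left out in turn. Ehd3 was 883.2, 1095 and 1126 CPM in CTRL and 639.6, 745.2 and 812.6 CPM in RbpjΔEC. The groups did not overlap, but CTRL 1 lay close to RbpjΔEC 3. The log2 fold change of Ehd3 was -0.50 ± 0.11 (SE), with a 95% interval from -0.74 to -0.25 and an adjusted p of 0.0611 (edgeR). Ehd3 passed without CTRL 1 (adjusted p = 0.0372) or RbpjΔEC 3 (adjusted p = 0.0225) and with DESeq2 (adjusted p = 0.000867).

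Emcn was the most abundant of the 7 genes, with 1560, 1482 and 1697 CPM in CTRL and 1302, 1366 and 1252 CPM in RbpjΔEC. The groups did not overlap, and Emcn had the smallest fold change of the 7. Its log2 fold change was -0.27 ± 0.08 (SE), with a 95% interval from -0.44 to -0.10 and an adjusted p of 0.106 (edgeR; 0.0440 with DESeq2).

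Among the secreted factors, Pi16 was 131.1, 153.5 and 162.9 CPM in CTRL and 82.5, 68.3 and 93.1 CPM in RbpjΔEC. The groups were far apart, and the log2 fold change of -0.88 ± 0.12 (SE; edgeR, adjusted p = 0.0138) had the largest size of the 7 genes. Sost was 21.5, 16.9 and 25.5 CPM in CTRL and 8.56, 11.9 and 20.2 CPM in RbpjΔEC. RbpjΔEC 3 lay within the CTRL range, and the other RbpjΔEC libraries were below it. The log2 fold change of Sost was -0.65 ± 0.35 (SE), with a 95% interval from -1.52 to 0.21 and an adjusted p of 0.401 (edgeR). Without RbpjΔEC 3 it was -1.06 (adjusted p = 0.0186). In an exact permutation test on CPM, two-sided, p was 0.2 for Sost and 0.1 for each of the other 6 genes, which is the smallest p that 3 libraries against 3 allow.

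The calls depended on single libraries. Without CTRL 3, 1 of the 7 genes was called lower (Tspan7), without RbpjΔEC 1 there were 2 (Tspan7 and Tbx3), and without RbpjΔEC 3 there were 6. In these fits the share of all genes called lower moved too, to 0.0888%, 0.068% and 1.74%. In all 14 alternative settings, each of the 7 genes had a log2 fold change below 0.

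Per kilobase of exon, the order of levels in CTRL was Emcn (292.0 CPM per kb), Ehd3 (157.8), Tbx3 (28.6), Pi16 (23.4), Tspan7 (14.5), Gata5 (12.8) and Sost (10.3). The order in RbpjΔEC was the same, from 241.6 CPM per kb for Emcn to 6.56 CPM per kb for Sost. Of the neighbours in this order, Gata5 and Sost overlapped in CTRL and the others did not. In RbpjΔEC they overlapped between Tspan7 and Gata5 and between Gata5 and Sost. After removal of the group means, the log2 CPM of Pi16 correlated with that of Tspan7 (r = 0.893) and of Gata5 (r = 0.882) over the 6 libraries, whereas Sost and Tbx3 went in opposite directions (r = -0.904). These pairs had the highest and the lowest values among all pairs of the 7 genes. Other pairs were weaker, such as Ehd3 with Emcn (r = 0.040) and Gata5 with Emcn (r = -0.54). The correlations rest on 3 libraries per group and are given as a description.

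Other genes known from glomerular ECs were also read, from a list of 8. Of the 7 tested, 1 passed the threshold (Lpl, lower), 4 had an unadjusted p under 0.05 (all lower) and all 7 were below 0, with a median log2 fold change of -0.47. Lpl, the lipase that releases fatty acids from circulating lipoproteins, was 90.6, 82.9 and 79.4 CPM in CTRL and 44.2, 39.3 and 57.6 CPM in RbpjΔEC. The groups did not overlap, and the log2 fold change was -0.84 ± 0.13 (SE; edgeR, adjusted p = 0.0212). It passed in 3 of the 6 fits that left out a library. Plat, which encodes tissue plasminogen activator, was 692.5, 955.5 and 885.3 CPM in CTRL and 424.2, 398.8 and 664.2 CPM in RbpjΔEC. RbpjΔEC 3 was nearest to CTRL, as for Sost and Lpl. The log2 fold change of Plat was -0.77 ± 0.23 (SE; edgeR, adjusted p = 0.185), and without RbpjΔEC 3 it was -1.04 (adjusted p = 0.00290). Kdr, the main VEGF receptor of ECs and the most abundant of the list, was 5988 ± 307 CPM in CTRL and 4955 ± 44.2 CPM in RbpjΔEC (SD, n = 3 each). Its log2 fold change of -0.27 (edgeR, adjusted p = 0.106) was of the size seen for Emcn, and it passed with DESeq2 (adjusted p = 0.0151). Crhbp was at 0 counts in all libraries.

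**Figure D2:**
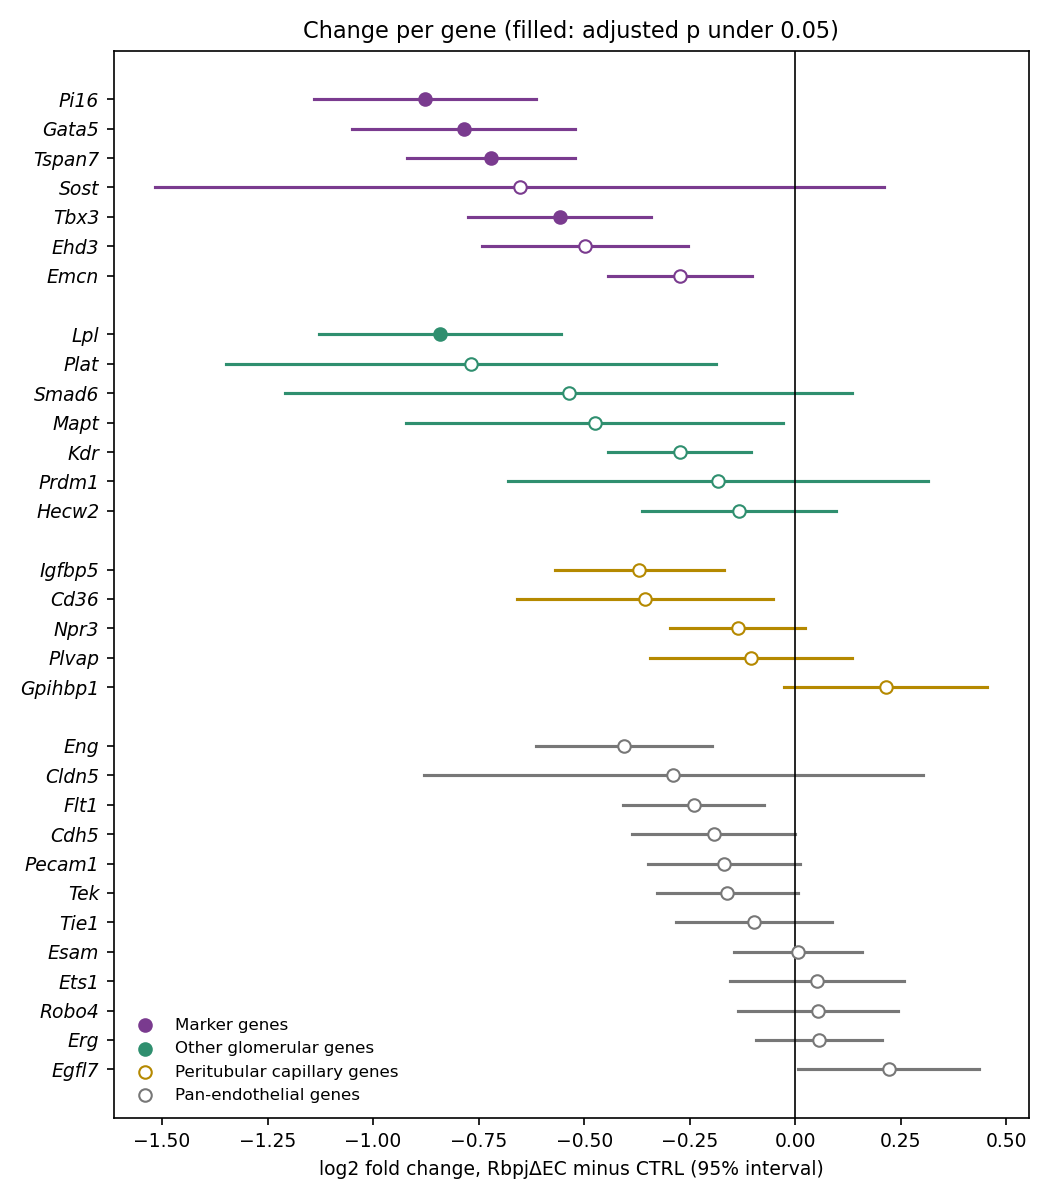
Log2 fold change (x axis, RbpjΔEC minus CTRL) with its 95% interval for each tested gene of 4 lists, filled where the adjusted p is under 0.05. The filled points are Gata5, Tbx3, Pi16, Tspan7 and Lpl, all left of 0, and no pan-endothelial or peritubular gene is filled.

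No gene listed as related to the 7 was called, by protein family or, for Emcn, as another sialomucin. Of 19 listed, 14 were tested and none passed the threshold, with a median log2 fold change of -0.31. An unadjusted p under 0.05 was reached by 6 (all lower), against 8.62% of all genes lower. With DESeq2, Podxl (adjusted p = 0.00379) and Crispld1 (adjusted p = 0.0455) passed. Podxl, a sialomucin that coats ECs and podocytes, had a log2 fold change of -0.35 ± 0.08 (SE; edgeR, adjusted p = 0.0678), from 3229 to 2543 CPM. Crispld1, like Pi16 a CAP family gene, had a log2 fold change of -0.37 ± 0.11 (SE; edgeR, adjusted p = 0.117). The following relatives are named after their values were seen. Gata3, at 5.69 CPM in CTRL and 1.95 CPM in RbpjΔEC, had the largest log2 fold change of the list (-1.55; edgeR, adjusted p = 0.142) and did not overlap between the groups. Sostdc1, a relative of Sost at 3.72 CPM in CTRL and 1.95 CPM in RbpjΔEC, did not overlap either (-0.93; edgeR, adjusted p = 0.171). Of the 14 tested relatives, 6 were lower in each RbpjΔEC library, against 11.6% of all genes. Ehd4, which at 287.4 CPM per kb in CTRL was above Ehd3, had a log2 fold change of -0.15 (edgeR, adjusted p = 0.446). Gata2, the abundant GATA factor of ECs in general, was 269.8 CPM in CTRL and 271.8 CPM in RbpjΔEC, with a 95% interval of the log2 fold change from -0.19 to 0.22. For Tbx2, the nearest relative of Tbx3, the log2 fold change was -0.27 (edgeR, adjusted p = 0.243). The differences between a gene and its relative were not tested.

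Genes of proteins that act with the 7 were not called either. None of 9 passed the threshold, and their median log2 fold change was -0.02. Micall1, which links EHD proteins to recycling endosomes, was 340.9, 345.9 and 332.8 CPM in CTRL and 390.0, 382.4 and 386.2 CPM in RbpjΔEC. Its libraries were higher in RbpjΔEC without overlap, with a log2 fold change of 0.18 ± 0.06 (SE; edgeR, adjusted p = 0.163). Over all genes, 23% were without overlap in either direction. With scaling to the pan-endothelial genes, which moves the median of all genes to 0.17, Micall1 was at 0.35 (adjusted p = 0.0359). Lrp6, a Wnt co-receptor bound by sclerostin, had a log2 fold change of -0.13 (edgeR, adjusted p = 0.366), and it was 0.04 with scaling to the pan-endothelial genes.

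Genes of ECs in general were read beside the glomerular genes. None of 12 pan-endothelial genes passed the threshold (median log2 fold change -0.13, range -0.41 to 0.22), and the smallest p were those of Eng (-0.41, edgeR adjusted p = 0.0660) and Flt1 (-0.24, adjusted p = 0.137). With DESeq2 both passed (adjusted p = 0.00268 for Eng and 0.0498 for Flt1). None of 5 peritubular capillary genes passed (median -0.14). The smallest p among them were those of Igfbp5 (-0.37, edgeR adjusted p = 0.0761) and Cd36 (-0.36, adjusted p = 0.217), whereas Plvap, which forms the diaphragms of fenestrae, was at -0.11 (adjusted p = 0.658). Igfbp5 passed with DESeq2 (adjusted p = 0.00183). The summed level of the pan-endothelial genes was nevertheless lower in each RbpjΔEC library, at 14908.6 ± 246.7 CPM against 16766 ± 781.5 CPM in CTRL (SD, n = 3 each).

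The 7 genes were therefore set against the pan-endothelial sum within each library. Their summed CPM was 16.9%, 19.5% and 19.5% of it in CTRL and 15.1%, 15.9% and 16.3% in RbpjΔEC, a ratio of 0.846 between the group means. Emcn and Ehd3 made up most of the sum of the 7, with 1580 and 1035 of 3119 CPM in CTRL. Of the 12 pan-endothelial genes, 7 had a log2 fold change below 0 and 5 above. The ratio was 0.612 for Pi16, 0.650 for Gata5, 0.683 for Tspan7, 0.761 for Tbx3 and 0.795 for Ehd3. On this scale the groups overlapped for Ehd3, for Sost (0.723) and for Emcn (0.931). The peritubular sum was mostly Igfbp5, with means of 14496 of 20217 CPM in CTRL and 11223 of 16513 CPM in RbpjΔEC. Against the summed peritubular genes, the 7 summed were 13.8%, 17.1% and 15.6% in CTRL and 13.8%, 14.5% and 14.4% in RbpjΔEC. The sum overlapped between the groups on that scale, with a ratio of 0.918, and the ratio was 1.01 for Emcn. Pi16 (0.662), Gata5 (0.703) and Tspan7 (0.740) did not overlap, whereas Tbx3 (0.825), Ehd3 (0.859) and Sost (0.784) did. When edgeR was run with the pan-endothelial genes as the scale, Pi16 (-0.71, adjusted p = 0.0263), Gata5 (-0.62, adjusted p = 0.0378) and Tspan7 (-0.55, adjusted p = 0.0230) were called lower, against 0.363% of all genes. Tbx3 did not pass on this scale (-0.39, adjusted p = 0.0573), and Emcn was at -0.10 (adjusted p = 0.427). This scale moved the median of all genes to 0.17.

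**Figure D3:**
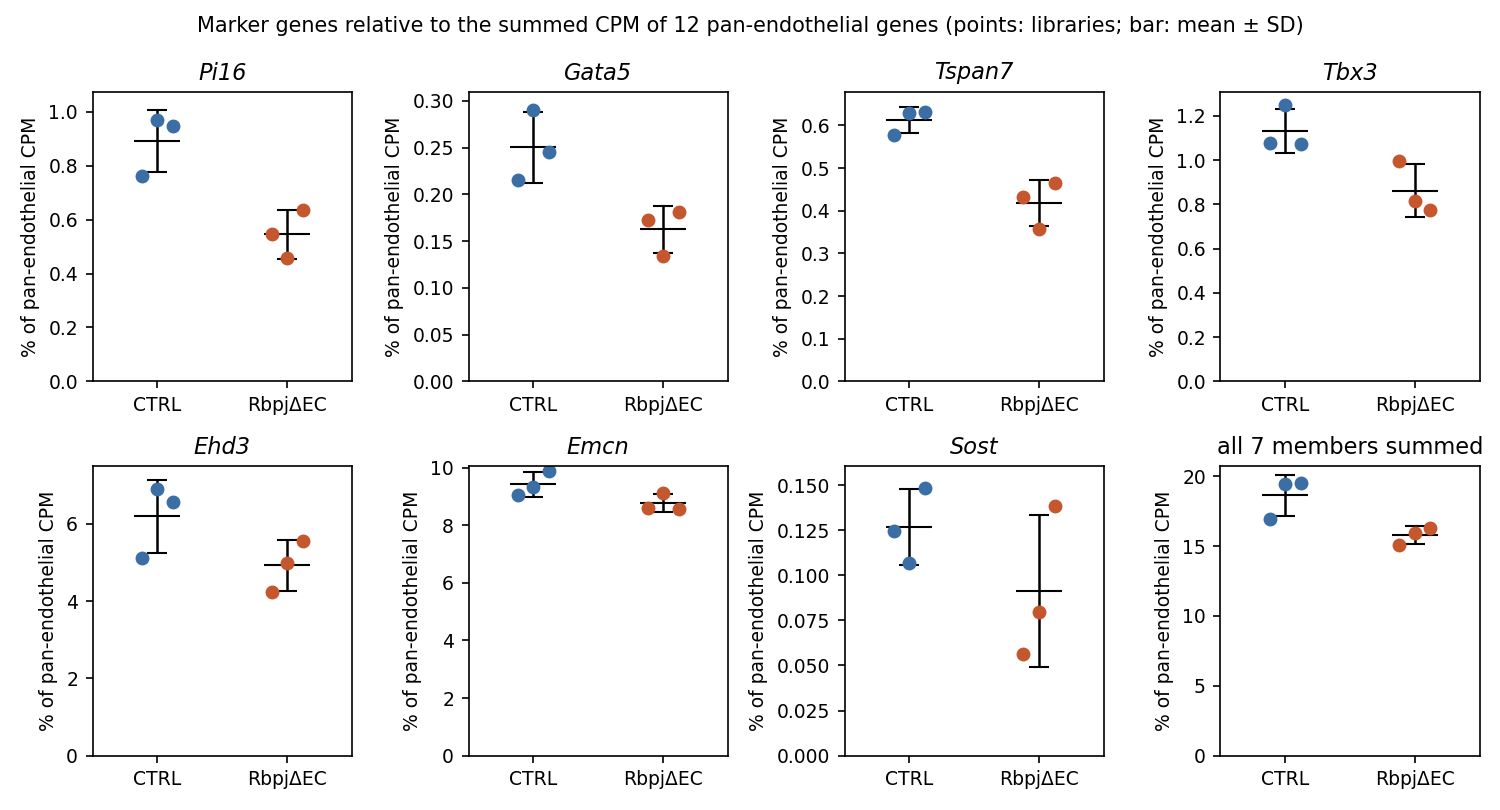
Level of each glomerular endothelial marker gene, and of the 7 summed, as a percentage of the summed CPM of 12 pan-endothelial genes in the same library (y axis, from 0), with the mean ± SD of 3 libraries. CTRL and RbpjΔEC overlap for Emcn, Ehd3 and Sost and are apart for the others. Emcn and Ehd3 make up most of the 7 summed.

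Markers of the other cells of the glomerulus and of the kidney were measured in the same libraries. Of 9 mesangial and mural genes, 3 were called lower (Acta2, Myh11 and Rgs5) and none higher, against 0.559% of all genes called lower. With a library left out, Acta2 and Myh11 each passed in 3 of 6 fits and Rgs5 in 2. Their summed level was between 108.4 and 139.1 CPM in CTRL and between 52.7 and 73.4 CPM in RbpjΔEC, without overlap, and the median log2 fold change was -1.08. The mesangial marker Itga8 was 31.2 ± 7.06 CPM in CTRL and 18.7 ± 3.48 CPM in RbpjΔEC, and Pdgfrb was 10.7 ± 2.69 and 4.13 ± 2.08 CPM (SD, n = 3 each). Both passed with DESeq2 (adjusted p = 0.00209 for Itga8 and 0.000221 for Pdgfrb). The mesangial and mural genes had lower means in RbpjΔEC, as had the 7 glomerular genes. Within CTRL the order differed, with CTRL 1 highest for the mesangial and mural sum (139.1 CPM) and lowest for the sum of the 7 (2919 CPM). The part of mesangial and mural RNA in the result was not tested. Of 8 podocyte genes none was called, and their sum was 257.4 to 281.3 CPM in CTRL and 287.8 to 298.7 CPM in RbpjΔEC. Most of this sum was Synpo, while the defining marker Nphs1 was low in both groups (2.01 CPM in CTRL and 1.15 CPM in RbpjΔEC). Nphs1 was 0.691, 0.333 and 2.42 CPM in RbpjΔEC 1 to 3. Without RbpjΔEC 3 its log2 fold change was -1.96 (edgeR, adjusted p = 0.0473). Of the 8 podocyte genes, 5 had a log2 fold change below 0 and 3 above. Of 8 tubule genes none was called, and their sum overlapped between 277.9 to 415.2 CPM in CTRL and 106.2 to 391.2 CPM in RbpjΔEC. Lrp2 was 129.1 CPM in RbpjΔEC 3 and at most 40.3 CPM in the other libraries. Tubule genes went in both directions, 4 with a log2 fold change below 0 and 4 above, and those named next were chosen after their values were seen. Umod, Slc12a1 and Aqp2 were lower in each RbpjΔEC library, with Umod at 76.8 ± 26.1 CPM in CTRL and 33.6 ± 13.3 CPM in RbpjΔEC (SD, n = 3 each). Slc5a2 was higher in each RbpjΔEC library, at 2.16 ± 0.747 CPM in CTRL and 5.08 ± 3.56 CPM in RbpjΔEC. Over all genes, 11.6% were lower in each RbpjΔEC library and 23% were without overlap in either direction. The part of tubule RNA in the result was not tested. Of 9 leukocyte genes, 4 were tested and none was called. Their sum was at most 8.12 CPM, with Ptprc at 2.59 CPM in CTRL and 0.956 CPM in RbpjΔEC and Cd3e and Cd3d at 0 in every library.

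**Figure D4:**
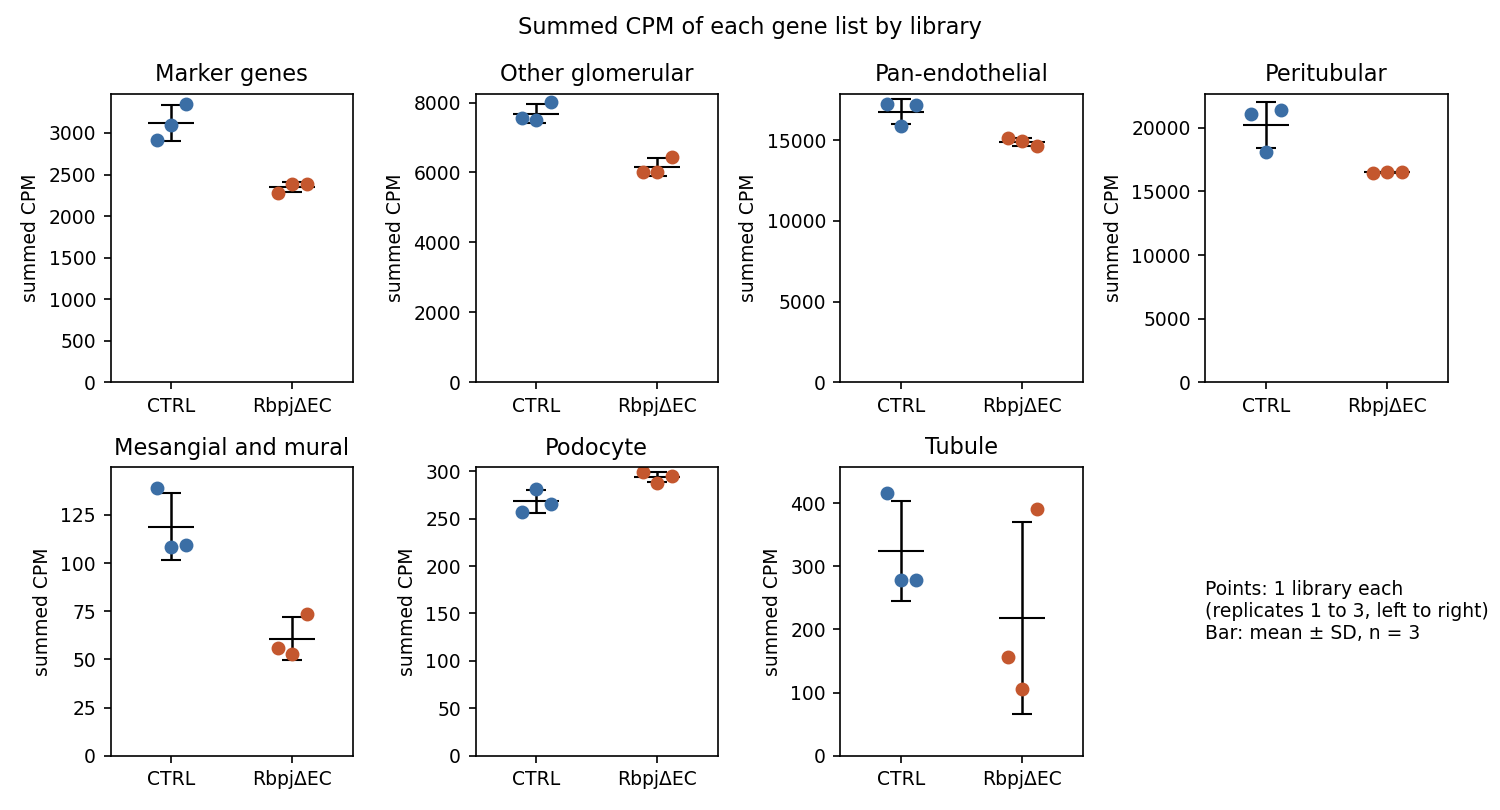
Summed CPM (y axis, from 0) of the genes of 7 lists in each library of CTRL and RbpjΔEC, with the mean ± SD of 3 libraries. The glomerular, other glomerular, pan-endothelial, peritubular and mesangial and mural sums are lower in each RbpjΔEC library, the podocyte sum is higher in each, and the tubule sums overlap.

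The genes whose pattern was most like the mean of the 7 over the 6 libraries were Ccdc80 (r = 0.999), Fbln2 (r = 0.994), Col18a1 (r = 0.993), Acvrl1 (r = 0.992) and Lypd6 (r = 0.992), among 10432 genes with a mean of at least 5 CPM. Each compares the log2 CPM of a gene with the average of the standardized log2 CPM of the 7, so the difference between the groups is shared by construction. Ccdc80 and Fbln2 encode proteins of the extracellular matrix, Col18a1 encodes a basement membrane collagen and Acvrl1 an endothelial receptor of the BMP family. Ccdc80 was 63.8 ± 4.94 CPM in CTRL and 40.3 ± 2.96 CPM in RbpjΔEC, and Col18a1 was 147.4 ± 7.87 and 76.3 ± 6.31 CPM (SD, n = 3 each).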

How the data were processed

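Kidney ECs of 3 CTRL and 3 RbpjΔEC mice were compared by RNA sequencing, and groups were taken from the sample labels. The authors made stranded total RNA libraries and deposited raw counts per gene as whole numbers, aligned with STAR 2.6.1d and counted with featureCounts of Subread 1.6.4 (per the labels' processing notes) on GRCm38 with GENCODE M25. TMM factors, CPM and tests were obtained from the deposited counts by edgeR 4.0.16 in R 4.3.3 (filterByExpr, robust glmQLFit, glmQLFTest, threshold 0.05 on the adjusted p). Exonic lengths and positions were from GENCODE M21, which holds all 7 genes with the same identifier and version. DESeq2 1.42.0, limma-voom (limma 3.58.1), other scalings and filters, a replicate block and each library left out were alternatives. The fits were tested on simulated data, where they recovered most but not all of the changed genes.

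The members and lists were chosen with earlier results of these data known. Named genes were the 7 members and genes of the other glomerular, related and partner lists past the threshold. Those with the 2 smallest p in these and in the peritubular and pan-endothelial lists were added. Also named were the most abundant other glomerular genes (Kdr and Plat), Rbpj and the 5 genes most like the members. Defining markers of cell types, among them Plvap, Pecam1 and Cdh5, were named too. Genes outside this rule are marked or are called members of a marker list. CTRL mice were littermates of RbpjΔEC mice, but which mice shared a litter was not given in the sources used here. Intervals rest on the spread of 3 libraries per group. The result for 1 marker of another cell type is not reported here.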

Additional observations from a re-analysis of the deposited data

How the results depend on the processing

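Of the 7 glomerular genes, 4 were called lower with relative log expression size factors, library size only, a filter of at least 1 CPM in 3 libraries and limma-voom, 3 with scaling to pan-endothelial genes, 6 with no low-count filter and with DESeq2, and 5 with the replicate block. The share of all genes called lower was 0.559%, and it was 0.407% with limma-voom, 0.363% with scaling to pan-endothelial genes, 1.88% with no low-count filter, 0.84% with DESeq2 and 0.965% with the replicate block. Tbx3 lost its call with scaling to pan-endothelial genes (-0.39). Ehd3 gained one with no low-count filter (-0.49), DESeq2 (-0.50) and the replicate block (-0.50), and Emcn with no low-count filter (-0.27) and DESeq2 (-0.28). The other glomerular genes called numbered 1, 3 with no low-count filter and 2 with DESeq2. Comparison genes gained calls too: Kdr, Eng, Flt1, Igfbp5, Podxl, Crispld1, Itga8 and Pdgfrb with DESeq2 and with no low-count filter, Cd36, Ehd2, Mapt and Ptprc with no low-count filter, Eng, Crispld1 and Pdgfrb with the replicate block, and Micall1 (higher) with scaling to pan-endothelial genes, where the median of all genes was 0.17. Rgs5 lost its call with library size only, scaling to pan-endothelial genes, the 1 CPM filter and limma-voom, and Myh11 with the 1 CPM filter. The causes were not tested.

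With a library left out, between 1 (without CTRL 3) and 6 (without RbpjΔEC 3) of the 7 genes were called, and 2 without RbpjΔEC 1, with between 0 and 3 of the other glomerular genes. The share of all genes called lower was 0.0888%, 1.74% and 0.068% in these 3 fits. Log2 fold changes ranged from -0.60 to -0.41 for Ehd3, -1.06 to -0.41 for Sost, -0.87 to -0.67 for Gata5, -0.69 to -0.47 for Tbx3, -0.99 to -0.77 for Pi16, -0.32 to -0.22 for Emcn and -0.79 to -0.62 for Tspan7. Gata5 lost its call without CTRL 3 (adjusted p = 0.0900) or RbpjΔEC 1 (0.0645), Pi16 without CTRL 3 (0.0731) or RbpjΔEC 1 (0.0742), and Tbx3 without CTRL 1 (0.0874), CTRL 3 (0.114) or RbpjΔEC 2 (0.106).

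Scaling to pan-endothelial genes turned the direction of Hecw2 (0.032), Lrp6 (0.044), Plvap (0.067), Pecam1 (0.0024), Rbpj (0.11) and Ehd4 (0.025), none of them called. With a library left out, Gata2 ranged from -0.079 to 0.080 and Rbpj from -0.089 to 0.0013. Over all genes, 103 were called lower and 106 higher, against 67 and 641 with scaling to pan-endothelial genes, 81 and 159 with library size only, 719 and 717 with no low-count filter and 322 and 262 with DESeq2. The replicate block called 178 lower and 166 higher, but deviations of same-numbered libraries correlated at 0.0231, 0.00916 and 0.00544, so the numbers were not taken to pair the samples, and not every library correlated best with its own number.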
